A study of Mus musculus with 3 samples.

Results

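The mouse Hoxd cluster on chromosome 2 was examined from Hoxd12 to Hoxd1 in chromatin of small intestinal crypts. The members are 8 genes, Hoxd12, Hoxd11, Hoxd10, Hoxd9, Hoxd8, Hoxd3, Hoxd4 and Hoxd1, and the peaks were those sharing at least 1 bp with chr2:74511000-74610000 (mm9), an interval of 99.0 kb that holds them. It contained 27 of the 1477 deposited Suz12 peaks and 59 of the 25955 deposited H3K27me3 peaks. In ChIP-seq, DNA pulled down with an antibody to a protein or histone mark is sequenced and located in the genome. The groups were 1 library precipitated with an antibody against Suz12, 1 with an antibody against H3K27me3 and 1 input library made without antibody. The input library was not used here. All came from C57BL/6 mice carrying Lgr5Gfp-CreERT2, an allele in which the Lgr5 stem cell promoter drives GFP and a Cre recombinase that needs an inducer, and the design text calls the crypt cells wild type. The labels give no age, no inducing treatment and no number of pooled animals. With 1 library per antibody there was no replicate error and no test across samples, and the peak lists hold no expression with which to check the crypt label.

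Hox genes encode homeodomain transcription factors that give cells their position along the body axis. They sit in clusters whose gene order follows the order in which the genes act from head to tail. Polycomb repressive complex 2 (PRC2) keeps Hox genes silent where they are not used: its subunit Suz12 is needed for the enzyme to trimethylate lysine 27 of histone H3, which gives the mark H3K27me3. In mammals PRC2 is found mainly at sequence rich in CG dinucleotides. In the mouse embryo the Hoxd12 side of the cluster is best known from limb, genital and hindgut development. Hoxd12 acts in the digits, Hoxd11 in the forearm and kidney, and Hoxd10 in lumbar motor neurons. Hoxd9 acts in the limb with its neighbours, Hoxd3 and Hoxd4 pattern the neck vertebrae, and Hoxd1 acts in pain-sensing neurons.

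In the RefSeq annotation of another mouse build, GRCm38.p6, the starts of the 8 genes came in the order listed above. All were on the plus strand, with Hoxd12 at the lower coordinates. How far each gene extends was not compared, so this is an order of annotated starts and not of whole genes. Gene order below means this order. The same annotation placed the microRNA gene Mir10b after Hoxd4, the long non-coding RNA gene Hoxd3os1 between Hoxd8 and Hoxd3, and Haglr before Hoxd1. No mm9 annotation was used here and coordinates were not converted, so peaks are described by their distance from the Hoxd12 end of the interval and were not assigned to single genes, exons or introns.

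RefSeq gave 9 promoters for the 8 genes, of which 4 are shown for the 2 outer genes of the interval and for a CG-rich and a CG-poor inner promoter. Each is the 250 bases before the annotated start, 5′ to 3′ on the plus strand of GRCm38.p6, with every CG in capitals. The positions are chr2:74674763-74675012 for Hoxd12, chr2:74691641-74691890 for Hoxd10, chr2:74721728-74721977 for Hoxd4 and chr2:74762730-74762979 for Hoxd1, and they cannot be set against the mm9 positions given for peaks.
Hoxd12: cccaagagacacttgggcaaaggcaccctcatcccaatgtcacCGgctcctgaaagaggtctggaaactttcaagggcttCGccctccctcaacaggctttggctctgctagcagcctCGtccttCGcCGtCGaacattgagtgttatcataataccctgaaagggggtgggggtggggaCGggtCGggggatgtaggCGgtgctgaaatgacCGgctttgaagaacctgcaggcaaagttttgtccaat
Hoxd10: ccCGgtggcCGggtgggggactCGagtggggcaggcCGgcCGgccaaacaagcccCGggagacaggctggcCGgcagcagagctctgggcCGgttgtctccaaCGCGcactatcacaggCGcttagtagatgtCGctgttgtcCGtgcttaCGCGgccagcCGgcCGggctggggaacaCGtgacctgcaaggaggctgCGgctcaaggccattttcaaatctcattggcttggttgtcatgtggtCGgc
Hoxd4: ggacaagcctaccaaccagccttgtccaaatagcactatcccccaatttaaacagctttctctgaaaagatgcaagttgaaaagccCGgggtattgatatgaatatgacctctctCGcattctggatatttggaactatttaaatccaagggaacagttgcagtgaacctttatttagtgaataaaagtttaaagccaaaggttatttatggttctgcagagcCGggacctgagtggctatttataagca
Hoxd1: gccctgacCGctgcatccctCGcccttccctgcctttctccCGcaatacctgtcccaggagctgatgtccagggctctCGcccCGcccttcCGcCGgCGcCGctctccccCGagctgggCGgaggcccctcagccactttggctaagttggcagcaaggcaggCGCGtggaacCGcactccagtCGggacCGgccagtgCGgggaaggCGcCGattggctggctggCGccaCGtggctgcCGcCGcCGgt

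The promoters differed widely in CG content. Hoxd1 held 24 CG dinucleotides, Hoxd10 held 20 and the second of the 2 Hoxd11 starts also held 20. Hoxd9 had 13, Hoxd3 12, Hoxd12 10 and Hoxd8 6. Hoxd4 had 3 and the first Hoxd11 start 2. CG reads the same on both strands, so each site was counted once. Of all 32851 RefSeq promoters cut the same way, 11.98% held at least as many as Hoxd1, 17.9% as many as Hoxd10 and 71.0% as many as Hoxd4. The median was 12 over the Hoxd promoters and 6 (quartiles 2 and 16) over all promoters, and 33.5% of all promoters had at least 12. The CG-richest promoter was thus that of Hoxd1, the last gene in the order, and CG-rich and CG-poor promoters were interspersed along the cluster.

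**Figure D1:**
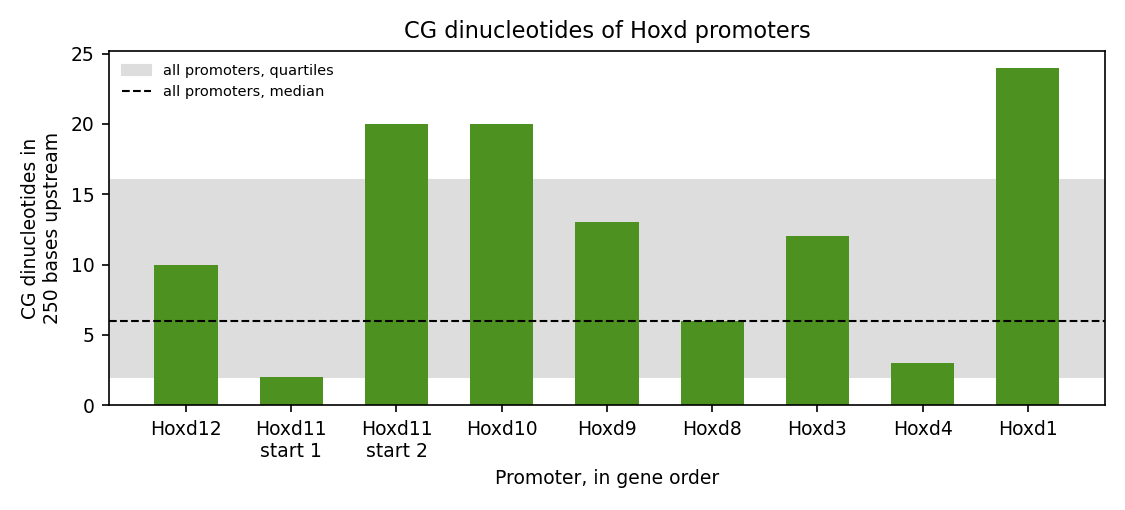
Number of CG dinucleotides in the 250 bases before each annotated start (y axis). The 9 RefSeq promoters of the 8 genes are in order of annotated start (x axis). Hoxd1 (24), Hoxd10 (20) and the second Hoxd11 start (20) lie above the grey band, which spans the quartiles of all promoters (2 to 16), and the dashed line is their median of 6.

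Both lists were dense in the cluster. Suz12 had 27 peaks (95% Poisson interval 17.8 to 39.3), or 2.73 per 10 kb, and they covered 19.1 kb (19.3%) of the interval. On the remaining autosomal sequence Suz12 peaks covered 0.0412%. The density of Suz12 peaks in the interval was 469-fold that of the other autosomal sequence (95% interval 308 to 686). H3K27me3 had 59 peaks (44.9 to 76.1), or 5.96 per 10 kb, covering 61.5 kb (62.1%), against 0.589% of the remaining autosomal sequence. Its density was 57.0-fold higher (43.4 to 73.6). All intervals given here for counts, shares and medians treat peaks as independent, which neighbouring peaks of 1 library are not, and none is a test of a difference. When the autosomes were divided into 24963 consecutive windows as long as the interval, 1.87% held any Suz12 peak centre and 18.5% any H3K27me3 peak centre. Only 2 of these windows held 27 or more Suz12 peaks and 4 held 59 or more H3K27me3 peaks. The cluster itself may be split between such windows or counted among them. The read depth behind either list is unknown, so the folds were not compared between antibodies as amounts.

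Suz12 was unevenly placed along the gene order. Of the 27 Suz12 peaks, 24 lay in the first 39.6 kb from the Hoxd12 end (chr2:74511000-74550642), where peaks covered 42.6% of the sequence. The next 21.0 kb, to 74571616, held none. A group of 3 peaks followed within 2.68 kb (74571617-74574297), and the last 35.7 kb, up to the Hoxd1 end, again held none. In all, the 49.5 kb on the Hoxd12 side had 34.1% of their sequence under Suz12 peaks, and the 49.5 kb on the Hoxd1 side had 4.42%.

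**Figure D2:**
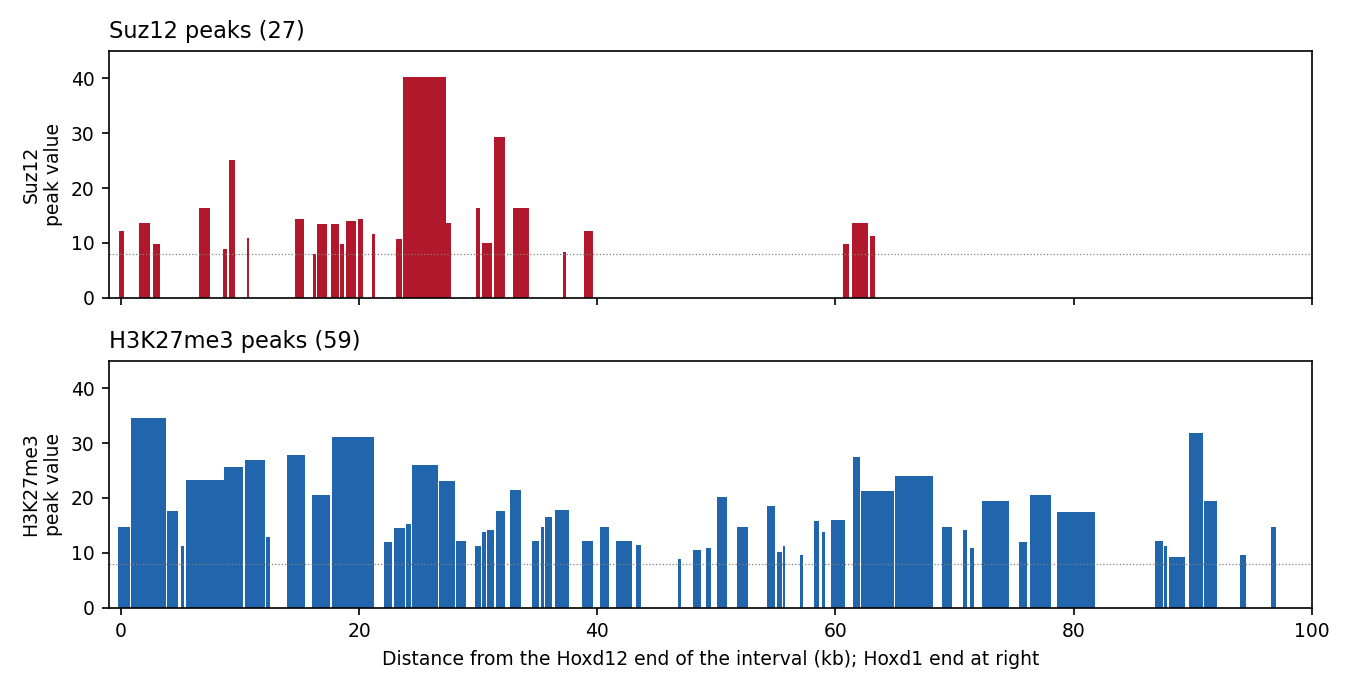
Suz12 (upper) and H3K27me3 (lower) peaks of the interval by distance from its Hoxd12 end in kb (x axis) and peak value (y axis). Each bar is 1 peak drawn at its width, the dotted line marks the lowest deposited value, 8, and Suz12 is missing from 39.6 to 60.6 kb and beyond 63.3 kb while H3K27me3 peaks continue.

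The peak value is the authors' score of unstated meaning and was used within each list only. The strongest Suz12 peak of the cluster was also its widest. It spanned 3563 bp at 74534691-74538253, began 23.7 kb from the Hoxd12 end, and had a value of 40.3, rank 18 in the whole list. The next by value lay at 74542283-74543241 (29.3, rank 54, 959 bp) and at 74520050-74520596 (25.04, rank 89, 547 bp). Of the 27, 16 (59.3%, 95% Clopper-Pearson interval 38.8 to 77.6) were in the upper 50% of the Suz12 list by value, which with ties is 50.3% of it. The cluster thus held many Suz12 peaks, of values spread much like those of the list as a whole.

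The other 24 Suz12 peaks had values from 8.05 to 16.4. Of those, 3 peaks shared the value 16.4, at 74517583-74518479, 74540821-74541129 and 74543888-74545235. Between 14.6 and 21.3 kb from the Hoxd12 end, 8 peaks of 229 to 876 bp followed each other closely, with values of 8.05 to 14.4. The group of 3 peaks beyond the gap was of ordinary strength, with values of 9.76 at 74571617-74572099, 13.6 at 74572398-74573726 and 11.3 at 74573921-74574297. The weakest members, 8.05 at 74527106-74527334 and 8.31 at 74548129-74548328, stood just above the lowest deposited value. Over all 27 the median value was 13.5 (95% interval from order statistics 10.8 to 14.4), against 11.7 in the rest of the list. The median width was 543 bp (382 to 805), against 418 bp. Both medians of the cluster were slightly above those of the rest of the list, with no test.

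H3K27me3 covered the cluster more evenly. All 10 windows of 10 kb held the mark, and 5 of the 10 held Suz12. H3K27me3 peaks covered 93.0% of the first 10 kb at the Hoxd12 end, 74.9% of the next and 79.8% of the one after. Coverage was 62.2% from 30 to 40 kb, 39.1% from 40 to 50 kb and 44.9% from 50 to 60 kb. It was 81.0% from 60 to 70 kb, the window with the 3 isolated Suz12 peaks, and 67.9%, 43.2% and 32.0% in the windows up to the Hoxd1 end. The corresponding Suz12 coverage was 34.8%, 40.2%, 52.6% and 41.3% in the first 4 windows and 21.9% from 60 to 70 kb. The windows with Suz12 were thus those with 62.2% to 93.0% of H3K27me3 coverage, and those without Suz12 had 32.0% to 67.9%, so the ranges overlapped.

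**Figure D3:**
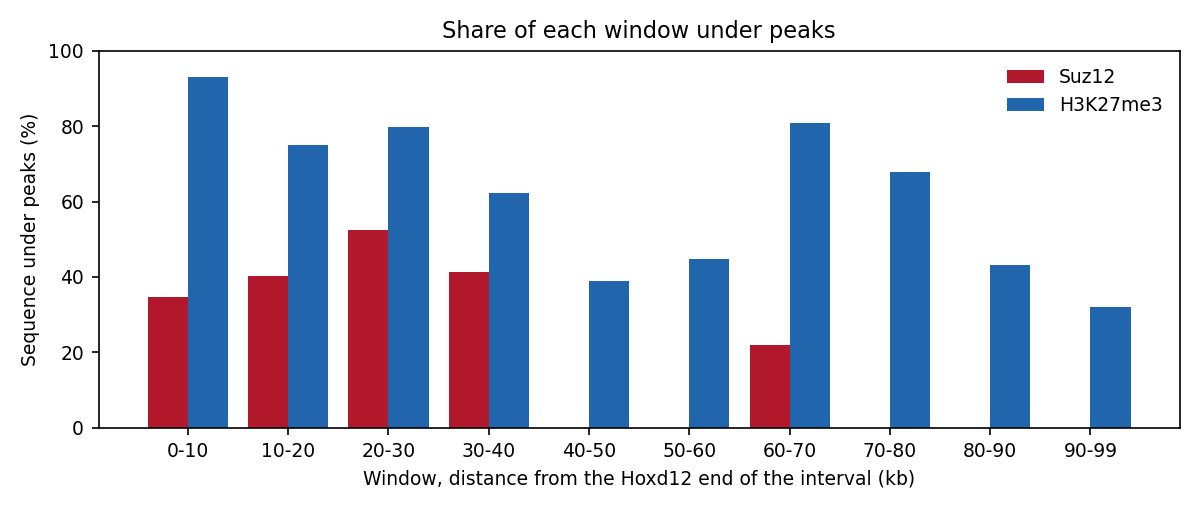
Share of sequence under Suz12 (red) and H3K27me3 (blue) peaks, in percent (y axis), in consecutive 10 kb windows from the Hoxd12 end to the Hoxd1 end (x axis; the last window is 9.0 kb). H3K27me3 is present in every window, from 32.0% to 93.0%, and Suz12 in 5 of them, from 21.9% to 52.6%.

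The strongest H3K27me3 peak of the cluster lay near the Hoxd12 end. It spanned 2887 bp at 74511851-74514737, had a value of 34.6 (rank 58 of the list) and held 2 Suz12 peaks. The second by value, 31.8 (rank 128), lay at 74600725-74601885, 89.7 kb along the interval, in the Hoxd1 stretch without Suz12. The peak at 74528756-74532249 had 31.2, was the widest of the cluster at 3494 bp, and held 5 Suz12 peaks, the most of any. Values of 27.9 at 74524910-74526428 and 27.5 at 74572493-74573068 completed the upper 5. Strong H3K27me3 peaks were therefore found at both ends of the gene order, with and without a listed Suz12 peak.

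The remaining wide H3K27me3 peaks measured 3172 bp at 74575991-74579162, 3146 bp at 74516471-74519616 and 3143 bp at 74589622-74592764. The first and last of these held no Suz12 peak. Over the 59 peaks the median width was 799 bp (95% order-statistic interval 577 to 958), against 378.5 bp in the rest of the list. Their median value was 14.7 (13.8 to 17.6), against 11.2. The top 10% of the H3K27me3 list by value, which with ties is 10.4% of it, held 19 of the 59 (32.2%). Both medians of the cluster were above those of the rest of the list, a description of 1 library with no test.

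Every Suz12 peak of the cluster coincided with the mark. All 27 overlapped an H3K27me3 peak by at least 1 bp (lower 95% Clopper-Pearson bound 87.2%), beside 96.3% of the whole list, so the share is near that of Suz12 peaks in general. Of the 27, 17 lay wholly under H3K27me3 peaks (63.1% of the whole list did), and 26 had at least 50% of their length covered (93.0% of the whole list did). The exception was the first peak of the isolated group, at 74571617-74572099, with 33.7% of its length under H3K27me3. By sequence, 90.02% of the bases in Suz12 peaks of the cluster were under H3K27me3, against 90.03% over the whole Suz12 list. Of the cluster's bases outside Suz12 peaks, 55.4% were under the mark.

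Seen from the mark, 22 of the 59 H3K27me3 peaks overlapped a Suz12 peak, or 37.3% (95% interval 25.04 to 50.9), beside 4.71% of the whole list. Outside the cluster the share was 4.63% (4.38 to 4.90). Of the H3K27me3 sequence in the cluster, 27.9% lay under Suz12 peaks, against 6.44% over the whole list. The share was thus higher in the cluster than in the rest of the list, although 37 of its H3K27me3 peaks had no Suz12 peak.

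Within the cluster, H3K27me3 peaks with Suz12 had a median value of 20.9 (quartiles 14.8 and 25.9) and a median width of 1126.5 bp, and the 37 without had 12.95 (11.2 and 16.5) and 636 bp. In the rest of the list the corresponding medians were 20.5 and 1321.5 bp with Suz12, and 11.1 and 366 bp without. Peaks with Suz12 were thus of similar value inside and outside the cluster, while peaks without Suz12 were wider inside it, with quartiles of 343 and 954 bp against 259 and 596 bp. Wide peaks have more chance to overlap, so width and overlap are not independent. Value followed width in both lists of the cluster, with a Spearman rho of 0.62 over 27 Suz12 peaks and 0.72 over 59 H3K27me3 peaks. In the rest of the lists rho was 0.66 over 1450 Suz12 peaks and 0.60 over 25896 H3K27me3 peaks, so the relation was general. The value of a Suz12 peak and the highest value of the H3K27me3 peaks under it had a rho of 0.10 over the 27, some of which share an H3K27me3 peak. These correlations describe peaks of 1 library each.

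**Figure D4:**
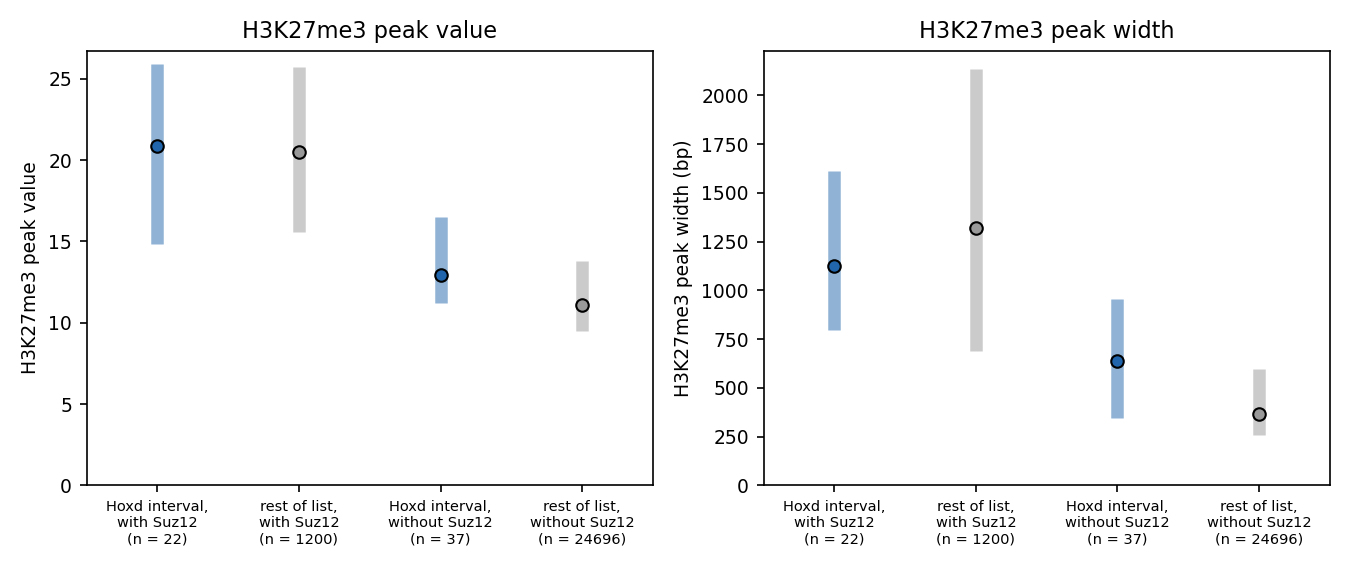
Median (point) and quartiles (bar) of H3K27me3 peak value (left, y axis) and width in bp (right, y axis) for peaks of the Hoxd interval (blue) and of the rest of the list (grey), with and without an overlapping Suz12 peak (x axis). Median values with Suz12 are 20.9 in the interval and 20.5 outside it, and median widths without Suz12 are 636 and 366 bp.

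The stretches without Suz12 differed from each other in the mark. The 21.0 kb stretch (74550643-74571616) touched 15 H3K27me3 peaks, which covered 43.0% of it, with a median value of 12.2 and a highest value of 20.2. The 35.7 kb stretch at the Hoxd1 end touched 16, covering 54.8%, with a median of 14.7 and a highest value of 31.8. Of these peaks, 2 in the first stretch and 6 in the second were in the top 10% of the H3K27me3 list. The last peak touching the first stretch and the first touching the second extend beyond it and overlap Suz12 peaks there. The latter, of value 21.3, is among the 6. In the 39.6 kb rich in Suz12, 27 H3K27me3 peaks covered 78.2%, with a median of 16.5, and 10 were in that top 10%. Of these 3 stretches, the middle one had the lowest H3K27me3 coverage, and the Hoxd1 stretch again included strong peaks.

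Numbers missing from the peak names may mark peaks left out of the deposited lists, though how the numbers were given is not stated. On chromosome 2 the numbers ran with position in both lists. The 27 Suz12 peaks of the interval took up 27 of 31 consecutive numbers and the 59 H3K27me3 peaks 59 of 70, so 12.9% and 15.7% of the numbers were missing here, against 14.9% and 23.6% over the whole lists. Of the missing Suz12 numbers, 1 fell between the peaks on either side of the 21.0 kb stretch. None was missing after the last Suz12 peak of the cluster: the next number belonged to a peak at 84726794-84727003, 10.1 Mb past the interval. If the numbers were given by position before any peaks were left out, no numbered Suz12 peak lay in the Hoxd1 stretch. Whether peaks too weak to be numbered existed there is not given by the lists.

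The edges of the interval fell differently on the 2 sides. At the Hoxd12 edge, a Suz12 peak at 74510795-74511229 (value 12.3) and an H3K27me3 peak at 74510721-74511759 (14.7) crossed it and were counted. The nearest excluded peaks were a Suz12 peak of value 10.4 at 74507783-74508470 and an H3K27me3 peak of value 10.9 at 74510232-74510632. In the 50 kb before the interval there were 9 Suz12 peaks beside the one crossing the edge, with a highest value of 58.1, and H3K27me3 covered 39.7%. This is the side of Hoxd13 and Evx2, though neither gene was placed on mm9 here. In the 50 kb after the interval there were no Suz12 peaks, and 5 H3K27me3 peaks with values up to 10.1 covered 3.14%. The last H3K27me3 peak of the interval, at 74607576-74608039 (value 14.7), was 19961 bp from the next. Both lists thus continued beyond the Hoxd12 edge, and the mark was sparse beyond the Hoxd1 edge.

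The longest stretch of the cluster without H3K27me3 measured 5092 bp (74592765-74597856), and of the 59 gaps 11 were longer than 1 kb, with a median gap of 341 bp. When H3K27me3 peaks separated by at most 5 kb were joined into domains, that gap divided the cluster. A domain of 111 kb (74481475-74592764) reached from before the Hoxd12 edge through most of the interval, with 77 H3K27me3 and 36 Suz12 peaks. A separate domain of 10.2 kb (74597857-74608039) at the Hoxd1 end had 7 H3K27me3 peaks, which covered 53.4% of it, and no Suz12 peak. The gap exceeded the joining distance only slightly, so this division rests on the distance chosen.

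The 3 other domains with the most Suz12 peaks lay on chromosomes 6, 15 and 11, the chromosomes that carry the Hoxa, Hoxc and Hoxb clusters in RefSeq, though their genes were not placed on mm9 here. The 111 kb Hoxd domain had 3.23 Suz12 peaks per 10 kb, against 2.81 on chromosome 6 (52094999-52276321), 1.45 on chromosome 15 (102733526-102905392) and 2.05 on chromosome 11 (96106630-96218807). Suz12 covered 26.2% of the Hoxd domain and 31.0%, 7.54% and 11.4% of the others in that order, while H3K27me3 covered 68.0%, and 67.8%, 66.3% and 54.5%. Of the H3K27me3 peaks in the Hoxd domain, 44.2% overlapped Suz12 (95% interval 32.8 to 55.9). This share was 40.0% on chromosome 6 (31.0 to 49.6), 14.8% on chromosome 15 (8.98 to 22.3) and 23.8% on chromosome 11 (14.9 to 34.6). The counting interval of the Hoxd domain overlapped those of chromosomes 6 and 11 and lay above that of chromosome 15. Each of these domains had a long stretch without Suz12: the longest measured 21.0 kb in the 111 kb domain, and 29.998, 58.4 and 38.5 kb in the others. The 35.7 kb stretch of the cluster without Suz12 runs across the end of the 111 kb domain and so is not in this comparison. It is longer than the stretch on chromosome 6, and the order depends on the joining distance. Both lengths are also set by edges and not by Suz12 peaks on both sides. The 35.7 kb stretch ends at the interval edge, and the one on chromosome 6 begins at the domain start. The 58.4 kb stretch on chromosome 15 likewise runs to the domain end, while those of 21.0 and 38.5 kb lie between Suz12 peaks. Between neighbouring Suz12 peaks, the longest gap on chromosome 6 ran from 146.8 to 165.1 kb of the domain. On chromosome 15 it ran from 34.0 to 51.3 kb. Both were shorter than the 21.0 kb gap in the Hoxd domain. The highest Suz12 value of the Hoxd domain, 58.1, lay outside the interval, before Hoxd12. In the others it was 39.7, 25.6 and 19.9.

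**Figure D5:**
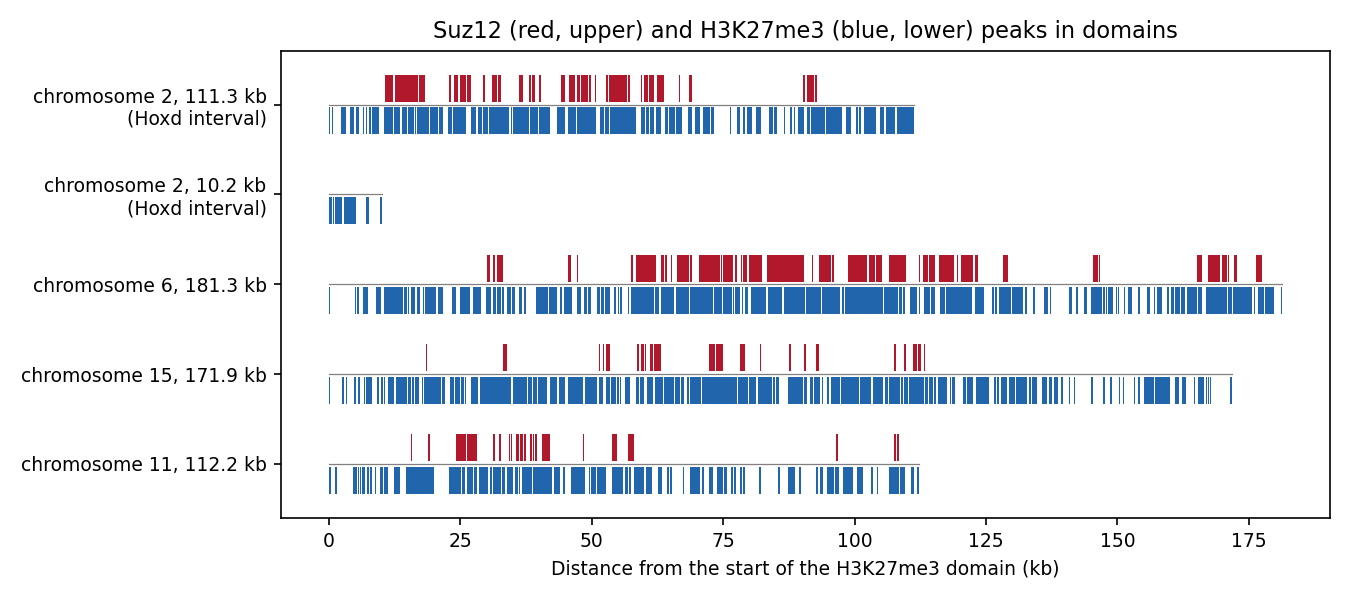
Positions of Suz12 (red) and H3K27me3 (blue) peaks in the 2 H3K27me3 domains of the Hoxd interval and in the 3 other domains with the most Suz12 peaks, by distance from the start of each domain in kb (x axis). H3K27me3 runs through all of them, and Suz12 leaves stretches of up to 21.0 kb in the 111 kb Hoxd domain and of 29.998, 58.4 and 38.5 kb on chromosomes 6, 15 and 11. Those on chromosomes 6 and 15 reach a domain edge, and the others lie between Suz12 peaks.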

How the data were processed

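Bowtie, MACS2 and mm9 are named in the submitters' processing notes, with neither roles nor settings. The authors deposited, for each antibody, 1 list of peaks with a score per peak. Use of the input in peak calling is not stated. No score is below 8, so weaker sites are in no count, and the read depth is unknown. Positions are counted from 1. The members, lists and descriptions were chosen with earlier results of these data known. Named are the 8 genes, any Suz12 peak of the interval, the H3K27me3 peaks that are the 5 highest, the 5 widest or richest in Suz12, the nearest outside peaks and the 3 other domains richest in Suz12. H3K27me3 peaks next to these were named as edges. Peaks overlapping by 1 bp counted as overlapping, and peaks at most 5 kb apart were joined. Alternatives were other overlap rules, the upper 50% of either list, other interval edges, windows and joining distances. The calculation of Suz12 and H3K27me3 overlap was tested on simulated data (300 of 300 peaks placed on H3K27me3 were called, and none of 200 placed off it). Values at single genes were planned and not run, since no mm9 annotation was used here. Chromosome lengths came from GenomeInfoDb 1.38.1, promoters from RefSeq (GRCm38.p6). Python 3.11.15, numpy 2.4.6, pandas 2.3.3, scipy 1.17.1 and matplotlib 3.10.9 were used.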

Additional observations from a re-analysis of the deposited data

How the results depend on the processing

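No paired analysis was possible because there is 1 library per antibody, which also leaves no replicate to omit. Of 36 alternatives, 27 left their value within its interval or within 1.5 times, 8 moved it and 1 reversed it. With the upper 50% of each list by value, 16 Suz12 peaks remained in the cluster and the H3K27me3 density was 95.6-fold that of other autosomal sequence. By bases under peaks the H3K27me3 fold was 105, and against the rest of chromosome 2 alone the Suz12 fold was 285. When at least 50% of an H3K27me3 peak had to be covered, 22.0% of those in the cluster overlapped Suz12. The first 33 kb exceeded the last 33 kb by 44.6 percentage points of Suz12 coverage and 30.4 of H3K27me3 coverage, against 29.7 and 16.5 between the 49.5 kb on either side of the midpoint. The median H3K27me3 value of the cluster was 3.5 above the rest of the list, and below it (a difference of -5.81) when the rest was limited to peaks with Suz12, a limit not applied to the cluster's own peaks. Joining Suz12 peaks over at most 1 kb gave 10 stretches in place of 2, and at most 10 kb again gave 2; both distances were chosen after seeing the data.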
